A study of Mus musculus with 3 samples.

Results

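Transcripts of 7 interferon-stimulated genes, Bst2, Ifi27l2a, Irf1, Irf7, Isg15, Ifit3 and Ifitm3, were followed across the cell types of mouse back skin in a single-cell RNA sequencing study of Piezo1 deletion. The 7 genes were taken by symbol from the 32285 genes of the deposited tables, and each symbol matched 1 row. No threshold on a measured value picked them, but they were proposed with earlier results of these data known. Their unique molecular identifiers (UMIs, counted transcript molecules) were summed over the cells of each type in each library.

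Interferons are secreted proteins that bind surface receptors and switch on JAK kinases and STAT factors, which carry the signal to the nucleus. Type I and type III interferons act mainly at interferon-stimulated response elements, and interferon-gamma acts mainly at gamma-activated sites. In skin the targets are best known for defence against viruses in keratinocytes, and a low level of some of them is seen without infection. Among the 7 genes, Irf1 and Irf7 encode transcription factors of the interferon regulatory factor family. Isg15 encodes a ubiquitin-like modifier, Ifit3 a cytoplasmic antiviral protein with tetratricopeptide repeats, Bst2 the membrane protein tetherin that holds budding virus particles at the cell surface, Ifitm3 a membrane protein that hinders virus entry, and Ifi27l2a a small interferon-inducible membrane protein.

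The study compared 3 libraries of back skin cells, 1 per group, all from C57BL/6 mice that carried K5-Cre-er, a Cre recombinase driven by the keratin 5 promoter of basal epithelium and activated by tamoxifen, and all were given tamoxifen from postnatal day 48 to day 52. The control carried Piezo1fl/+ and Tdfl/+ and was taken on day 62. The 2-week knockout carried Piezo1fl/fl and Tdfl/+ and was also taken on day 62. The 3-week knockout carried Piezo1fl/fl and Tdfl/fl and was taken on day 71, so it differed from the control in age and in the Td allele as well as in Piezo1. All 3 groups thus carried the driver, the drug, at least 1 floxed Piezo1 allele and at least 1 floxed Td allele, and none was free of recombinase. With 1 library per group no test between groups exists, every difference below has no replicate check, and all intervals are 95% intervals for counting error only. The labels do not say how many mice entered each library.

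The filters left 4883 cells in the control library, 9539 in the 2-week and 9576 in the 3-week knockout, and a cell held a median of 9968, 7495 and 8762 unique transcript counts (UMIs) in these 3 libraries. The kept libraries shared between 12 and 20 cell barcodes per pair, out of the 23998 cells. Piezo1 itself, the mechanically gated channel named in the labels, stood at 34.9, 27.6 and 15.2 CPM (UMIs of the gene per 1000000 UMIs) in the epithelial cells of control, 2-week and 3-week knockout, and at 62.2, 52.2 and 36.2 in the other cells. These are 3' end counts, and the labels do not say which exons the floxed allele removes, so they do not check the deletion. Clusters were formed without 111 genes of the interferon pathway, so the 7 genes did not enter the clustering directly. Other genes that vary with them were not removed, and doublets were called with no gene left out. Clusters were named by their resemblance to marker lists. The 8 named classes with at least 100 cells in every library were interfollicular basal, suprabasal, cycling, upper hair follicle and hair follicle bulge keratinocytes, dermal papilla or sheath cells, fibroblasts, and T or natural killer (NK) cells. The mix of classes differed: bulge-like cells made up 10.3%, 30.4% and 9.07% of the cells of control, 2-week and 3-week knockout, and fibroblast-like cells 7.31%, 1.18% and 6.78%. Values are therefore given within classes.

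The promoters are shown first because they tell apart the kinds of interferon element that the genes carry. In windows from 250 bases before to 50 bases after each RefSeq transcription start (GRCm38.p6), the core of the response element was searched as GAAA, any 2 bases, then GAAA, on both strands, and the gamma-activated site as TTCNNNGAA, which reads the same pattern on either strand. The core was found in 1131 of all 32851 promoters (3.44%) and the gamma-activated site in 2726 (8.30%). Of the 7 genes, 6 had a promoter in the table, Irf1 with 2 starts, and Ifi27l2a had none. The core was found in 4 of these 6 genes and the gamma-activated site in 3, beside 3.99% and 9.55% of all genes. The stretches that hold the matches are printed 5′ to 3′ on the gene's own strand, with matched bases in capitals.
Bst2 (chr8:71537548-71537647, minus strand): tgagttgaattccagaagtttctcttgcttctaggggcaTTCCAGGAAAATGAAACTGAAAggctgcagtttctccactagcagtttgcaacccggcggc
Isg15 (chr4:156200836-156200935, minus strand): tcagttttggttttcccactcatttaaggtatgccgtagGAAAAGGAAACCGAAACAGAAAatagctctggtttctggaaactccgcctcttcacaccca
Ifit3 (chr19:34583345-34583444, plus strand): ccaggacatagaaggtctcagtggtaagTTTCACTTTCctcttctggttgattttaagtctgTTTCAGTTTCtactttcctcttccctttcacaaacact
Irf1 (chr11:53769878-53769977, plus strand): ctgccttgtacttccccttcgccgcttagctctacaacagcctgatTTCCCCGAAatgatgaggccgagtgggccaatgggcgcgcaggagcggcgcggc
Ifitm3 (chr7:141010716-141010742, minus strand, just after the start): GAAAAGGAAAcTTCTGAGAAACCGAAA

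In Isg15 the capitals are 3 response element cores in tandem, each sharing 4 bases with the next, 78 to 57 bases before the start. In Bst2 they are 2 overlapping cores, 130 to 115 bases before the start, that run into a gamma-activated site at 136 to 128. Ifit3 had 2 separate cores, both read on the opposite strand, at 156 to 147 and 122 to 113 bases before the start. Irf1 had a gamma-activated site alone, 90 to 82 bases before its first start, and neither pattern at its second start. Ifitm3 had both kinds within the 27 bases printed, and Irf7 had neither in its window. These are matches of letters, not measured binding.

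**Figure D1:**
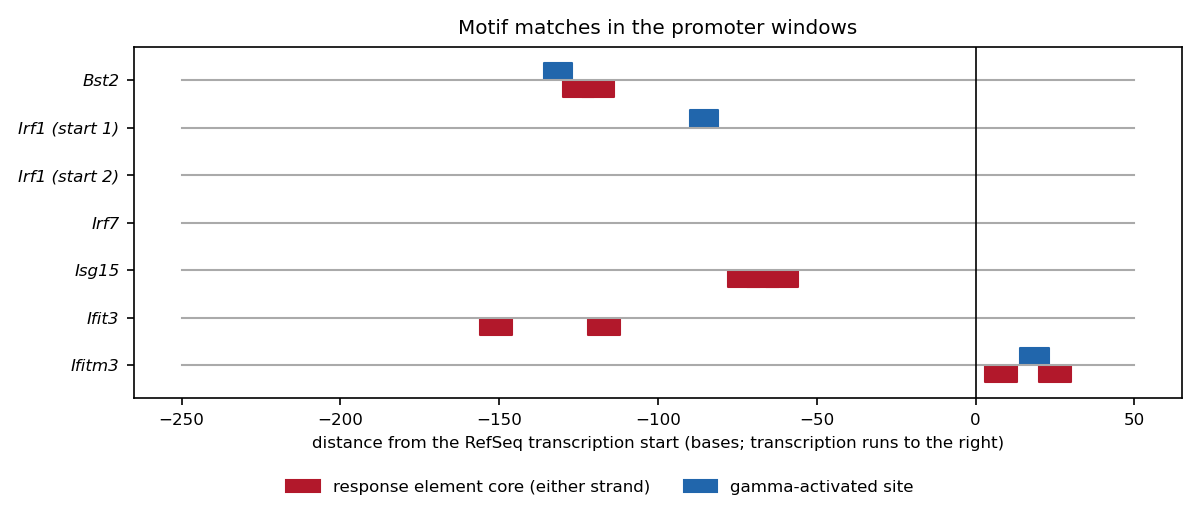
Matches to the response element core (lower boxes) and the gamma-activated site (upper boxes) along the promoter windows of 6 genes, with distance from the RefSeq transcription start in bases on the horizontal axis. The 3 overlapping cores of Isg15 form 1 block, and Irf7 and the second start of Irf1 hold no match.

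In the mouse genome (mm10) the genes lie apart except for the pair on chromosome 7. The GENCODE M21 annotation places Bst2 at chr8:71534255-71537456, Ifi27l2a at chr12:103442167-103443680, Isg15 at chr4:156199424-156200818, Irf7 at chr7:141262706-141266481 and Ifitm3 at chr7:141009586-141010770, all on the minus strand, and Irf1 at chr11:53770014-53778374 and Ifit3 at chr19:34583531-34588731 on the plus strand. All 7 are annotated as protein coding, and UMIs were assigned to whole genes.

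The cell types with the highest levels were partly shared between the genes. The levels that follow are means over the 3 libraries in CPM, over 20 classes and unnamed clusters including small ones. Bst2 was highest in T or NK-like cells (263) and blood endothelial-like cells (251), whose ranges over the libraries overlapped, and lowest in bulge-like cells (6.76). Ifi27l2a was highest in cycling keratinocytes (603) and upper hair follicle-like cells (404), again with overlapping ranges, and lowest in fibroblast-like cells (13.3). It was not limited to epithelium: the cluster led by Lyz2 and Ccl8 held 316, as did basal keratinocyte-like cells, and Schwann-like (162) and T or NK-like cells (130) held more than suprabasal-like cells (106), with overlapping ranges. Epithelial cells held 95.6%, 98.7% and 91.9% of its UMIs in control, 2-week and 3-week knockout, a share that also follows how many of the cells were epithelial. Ifit3 lay at the other end, with 15.8%, 17.2% and 15.1% of its few UMIs in epithelial cells and its highest means in melanocyte-like (66.9), Schwann-like (62) and blood endothelial-like cells (34.9).

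Isg15 was highest in blood endothelial-like (195), pericyte-like (187) and T or NK-like cells (167), which overlapped one another, and lowest in bulge-like cells (3.80). Irf7 was highest in blood endothelial-like cells (59.8), with melanocyte-like cells next (34.3) and overlapping, and was low in bulge-like (3.17) and sebaceous gland-like cells (1.55). Irf1 was highest in Schwann-like (654), blood endothelial-like (562) and pericyte-like cells (556), which overlapped, and lowest in sebaceous gland-like cells (27.3). Ifitm3 stood in blood endothelial-like cells at 3045, between 2812 and 3281 in the single libraries, with no overlap with the next class, pericyte-like cells at 1178. The bulge was thus the lowest class for Bst2 and Isg15 and the next to lowest for Irf7.

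**Figure D2:**
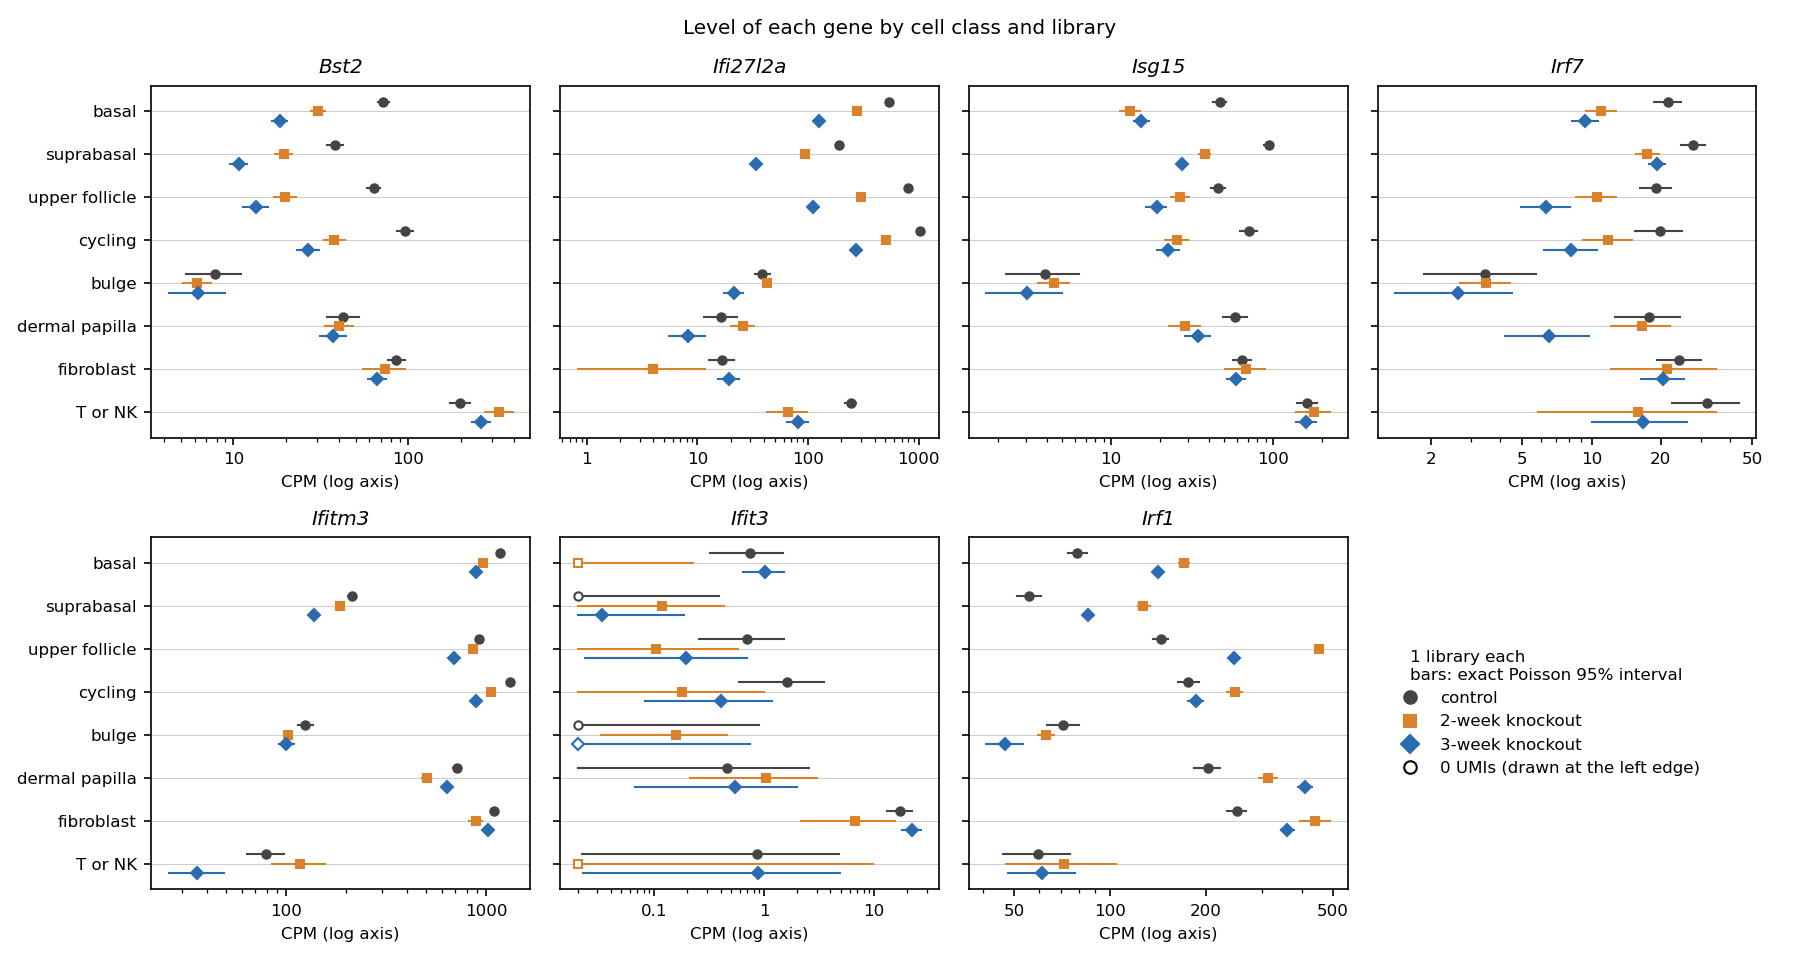
CPM of each gene (horizontal log axes) in the 8 named classes, 1 point per library, with bars for the exact Poisson 95% interval and open symbols for 0 UMIs. In basal, suprabasal, upper follicle and cycling keratinocytes the control point lies to the right of both knockouts for Bst2, Ifi27l2a, Isg15 and Irf7 and to the left of both for Irf1.

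Over the 8 named classes the knockouts were compared with control by the ratio of CPM. A gene and class pair was compared when it had at least 50 UMIs over both libraries, and it was counted as higher or lower when the ratio passed 1.5-fold and its exact interval excluded 1. Of the 56 pairs, 48 could be compared at 2 weeks, and 7 were higher and 20 lower in the knockout. By the same rule 6.95% of all gene and class pairs were higher and 5.79% lower. At 3 weeks 47 pairs could be compared, and 4 were higher and 24 lower, against 10.7% higher and 8.44% lower among all pairs. Both comparisons use the same control library, so they are not independent of each other. The keratinocyte classes outside the bulge held 16 of the 20 lower pairs at 2 weeks and 16 of the 24 at 3 weeks, and 9 of the 11 higher pairs were of Irf1.

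**Figure D3:**
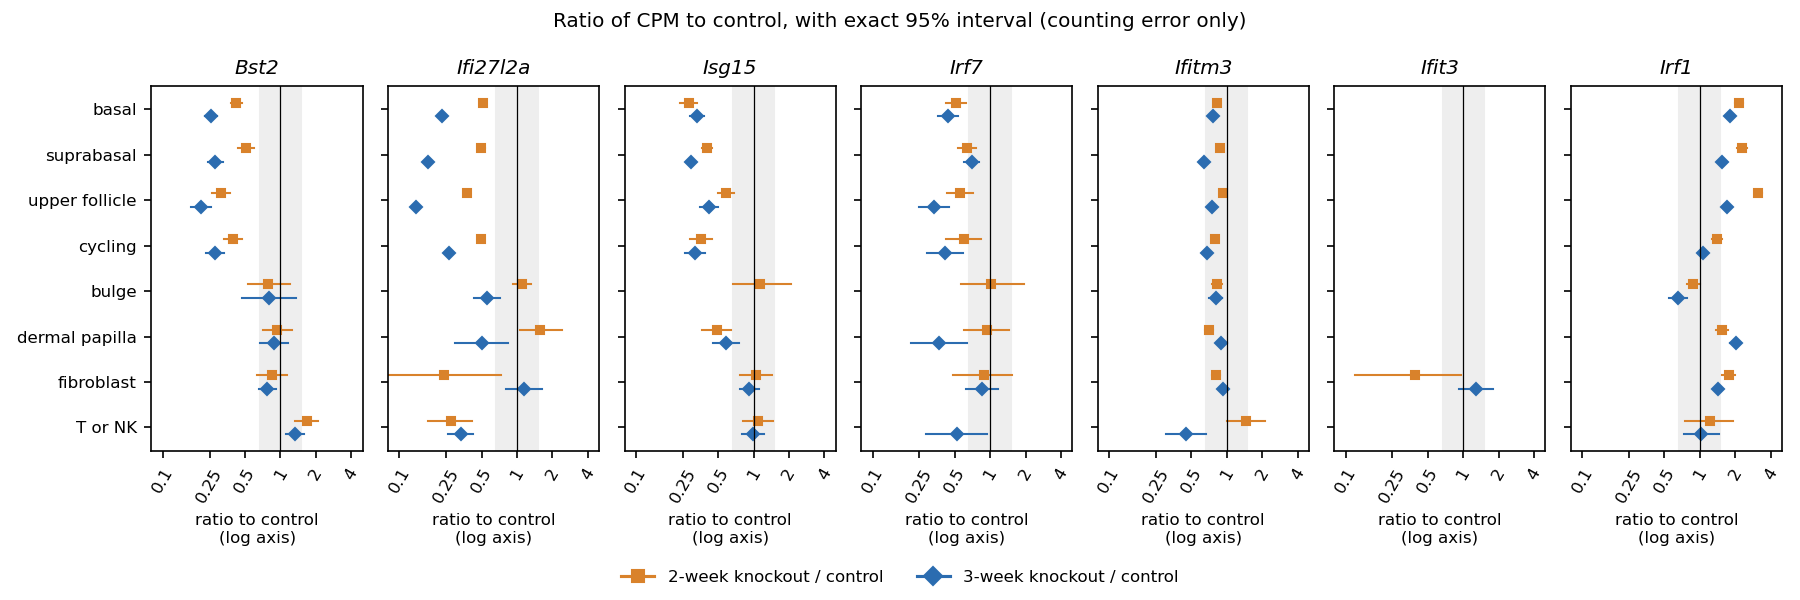
Ratio of each knockout library to control (horizontal log axes) for the 7 genes in the 8 named classes, with exact 95% intervals and a grey band for less than 1.5-fold. Pairs with fewer than 50 UMIs are left out. Bst2, Ifi27l2a, Isg15 and Irf7 lie left of the band in most keratinocyte classes outside the bulge, and Irf1 lies right of it in several.

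In basal keratinocyte-like cells 4 of the 6 genes that could be compared were lower and 1 was higher in the 2-week knockout, where 4.01% of all genes were lower and 8.04% higher. The 3-week knockout gave the same counts, 4 lower and 1 higher, against 8.09% and 13.2% of all genes. The median log2 ratio of the 6 genes was -0.96 at 2 weeks and -1.40 at 3 weeks, beside 0.08 and 0.10 for all genes compared. In upper hair follicle-like cells the counts were again 4 lower and 1 higher in each knockout, against 4.63% lower and 6.72% higher of all genes at 2 weeks and 8.95% lower and 8.88% higher at 3 weeks. The 7 genes thus exceeded the share of all genes on the lower side in both classes.

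Bst2, which encodes tetherin, stood in basal keratinocyte-like cells at 72.1 CPM in control, 30.4 in the 2-week and 18.4 in the 3-week knockout. The control library was highest and the 3-week library lowest, with ratios to control of 0.421 (0.376 to 0.472) and 0.255 (0.226 to 0.287). The share of these cells with at least 1 Bst2 UMI was 45.4%, 20.3% and 13.5%. Since depth differs between libraries, the share expected with cells thinned to 2000 UMIs was also calculated, with shallower cells left out. It was 11.5%, 5.45% and 3.09% in the same order. In upper hair follicle-like cells Bst2 stood at 63.4, 19.8 and 13.4, in suprabasal-like cells at 38.3, 19.5 and 10.8 and in cycling keratinocytes at 95.7, 37.8 and 26.7. The order control, 2-week, 3-week was thus the same in all 4 keratinocyte classes outside the bulge, where its ratios ran from 0.313 to 0.508 at 2 weeks and from 0.211 to 0.280 at 3 weeks.

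Ifi27l2a, the gene of a small membrane protein, stood in basal keratinocyte-like cells at 543, 278 and 126 CPM in control, 2-week and 3-week knockout. Its ratios were 0.512 (0.492 to 0.532) and 0.232 (0.222 to 0.243). A UMI was found in 86.8%, 52.8% and 41.9% of these cells, or 52.1%, 27.8% and 16.6% after thinning. In upper hair follicle-like cells it stood at 799, 303 and 111, with ratios of 0.379 (0.362 to 0.395) and 0.139 (0.130 to 0.148), the lowest ratio of any of the 7 genes in the 8 classes at 3 weeks. Suprabasal-like cells held 191, 94.6 and 33.7, and cycling keratinocytes 1028, 510 and 272. As with Bst2, control was highest and the 3-week knockout lowest in each of these classes. In dermal papilla-like cells, where Ifi27l2a was scarce, a UMI was found in 2.70%, 2.63% and 2.38% of cells, at median depths of 4534, 4083 and 3594 UMIs beside 14951, 11251 and 12492 in basal keratinocyte-like cells.

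Isg15, the ubiquitin-like modifier, stood in basal keratinocyte-like cells at 46.8 CPM in control, 13.1 in the 2-week and 15.4 in the 3-week knockout. Both knockouts lay below control, with ratios of 0.280 (0.238 to 0.330) and 0.330 (0.287 to 0.378), and their own order was not that of Bst2. Cells with a UMI were 27.9%, 9.93% and 8.98%, or 7.64%, 2.48% and 2.49% after thinning. Suprabasal-like cells held 94.1, 37.8 and 27.6, upper hair follicle-like cells 45.7, 26.6 and 19.1, and cycling keratinocytes 70.9, 25.4 and 22.6. A single control cell gave 20.2% of the suprabasal Isg15 UMIs, and a single 3-week cell gave 11.4% of the basal ones.

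Irf7, the factor that amplifies type I interferon production, was sparser. In basal keratinocyte-like cells it stood at 21.4, 11.0 and 9.37 CPM, with ratios of 0.515 (0.421 to 0.628) and 0.437 (0.362 to 0.528). The level was 19.0, 10.5 and 6.36 in upper hair follicle-like cells, 19.8, 11.8 and 8.14 in cycling keratinocytes, and 27.6, 17.5 and 19.3 in suprabasal-like cells. Control was highest in all 4 classes, and the suprabasal 3-week ratio of 0.699 (0.603 to 0.812) was the 1 value that did not pass 1.5-fold. Over Bst2, Ifi27l2a, Irf7 and Isg15, 16 of 16 pairs in these 4 classes were lower at 2 weeks (ratios 0.280 to 0.634) and 15 of 16 at 3 weeks (0.139 to 0.699). The weakest of these, Irf7 in suprabasal-like cells at 2 weeks (0.634), was kept in 9 of the 12 alternative analyses and was not lower by the rule in any of the 3 clusters of the class. In 4 further epithelial clusters without a class name, 10 of 12 pairs of the same genes were lower at 2 weeks and 11 of 13 at 3 weeks, where between 4.53% and 6.66% of all genes in a cluster were lower at 2 weeks and between 9.47% and 12.5% at 3 weeks.

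Ifitm3, the inhibitor of virus entry and the deepest counted of the 7 genes, differed less. Basal keratinocyte-like cells held 1167, 959 and 893 CPM, with ratios of 0.822 (0.803 to 0.842) and 0.765 (0.748 to 0.782), and a UMI was found in 98.9%, 96.5% and 96.6% of the cells. Control was highest, as for the genes above, but the size was below 1.5-fold. Upper hair follicle-like cells held 921, 863 and 693, cycling keratinocytes 1317, 1058 and 888, and suprabasal-like cells 213, 186 and 138. None of the 4 pairs passed 1.5-fold at 2 weeks (0.803 to 0.937), and at 3 weeks only suprabasal-like cells did, at 0.646 (0.612 to 0.681). That 1 call was lost in 4 of the 12 alternative analyses.

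Ifit3, the antiviral protein with 2 response element cores in its promoter, was close to the floor in keratinocytes. Basal keratinocyte-like cells held 8 UMIs in control, 0 in the 2-week and 24 in the 3-week knockout, and 83.3% of the last came from 1 cell. A count of 0 in the 2-week library allows a level of up to 0.184 CPM (3 counts). No keratinocyte class had the 50 Ifit3 UMIs asked for, so none entered the counts. At 2 weeks the interval of the ratio still lay below 1 in basal keratinocyte-like cells, with an upper limit of 0.385, on 8 control UMIs. It also did in cycling keratinocytes (0.112, 0.00243 to 0.919), on 6 control UMIs. In upper hair follicle-like cells it reached past 1 (0.148, 0.00323 to 1.22). Bulge-like cells held 3 UMIs at 2 weeks against 0 in control, and suprabasal-like cells 2 against 0. The basal ratio at 3 weeks was 1.35 (0.588 to 3.48).

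Irf1, a factor that both interferon-gamma and inflammatory signals induce, went the other way from the other compared genes in the keratinocyte classes outside the bulge. Upper hair follicle-like cells held 144 CPM in control, 452 in the 2-week and 244 in the 3-week knockout, with ratios of 3.15 (2.96 to 3.36) and 1.70 (1.59 to 1.82). The 2-week library was highest and the control lowest. Suprabasal-like cells held 55.8, 127 and 85.4 (ratios 2.28 and 1.53), basal keratinocyte-like cells 78.9, 171 and 141 (2.17 and 1.79) and cycling keratinocytes 176, 246 and 186 (1.40 and 1.06). Control was the lowest library in 7 of the 8 classes, the exception being bulge-like cells. After thinning, 18.9%, 43.2% and 30.8% of upper hair follicle-like cells were expected to hold an Irf1 UMI. The upper follicle and suprabasal calls at 2 weeks were kept in all 12 alternative analyses, while those at 3 weeks were lost in 2 and in 6 of them.

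Immediate early genes, which enzymatic dissociation of tissue can also induce, were like Irf1 higher in both knockouts in several classes, but not always in the same order. Their summed level over 14 genes in upper hair follicle-like cells was 13817, 30119 and 22571 CPM in control, 2-week and 3-week knockout, with 12 of 14 higher at 2 weeks and 9 of 14 at 3 weeks, against 6.72% and 8.88% of all genes. In basal keratinocyte-like cells it was 14976, 19767 and 26154, highest at 3 weeks where Irf1 was highest at 2 weeks. There 3 of 14 were higher at 2 weeks and 10 of 14 at 3 weeks, against 8.04% and 13.2% of all genes. In bulge-like cells, where Irf1 was not higher, it was 49554, 56134 and 54361. Of the 14 genes 0 were higher there in either knockout, against 5.39% and 10.2% of all genes. The part of immediate early genes in the Irf1 values was not tested.

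The basal class holds clusters that differ in their share of each library, so its values were also read within clusters. The cluster led by Itga2 and Epgn held 524 of 712 basal keratinocyte-like cells in control, 659 of 1410 at 2 weeks and 511 of 1837 at 3 weeks, and the cluster led by Krt14 and Smoc2 held 176, 706 and 1277. Bst2 was lower in both, with ratios of 0.371 and 0.456 at 2 weeks and 0.259 and 0.241 at 3 weeks, in that order of clusters. Ifi27l2a gave 0.452 and 0.468, then 0.172 and 0.205. Isg15 gave 0.227 and 0.305, then 0.250 and 0.331, and Irf7 gave 0.599 and 0.408, then 0.542 and 0.376. All 4 genes were thus lower by more than 1.5-fold within each cluster as well as in the class.

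Irf1 behaved differently inside the basal class. In the Itga2 and Epgn cluster it stood at 44.6, 50.8 and 58.4 CPM in control, 2-week and 3-week knockout (ratios 1.14 and 1.31), and in the Krt14 and Smoc2 cluster at 218, 315 and 183 (1.45 and 0.840). Neither cluster passed 1.5-fold in either knockout, and with both clusters weighted equally the class ratio was 1.39 at 2 weeks and 0.920 at 3 weeks. In upper hair follicle-like cells the higher Irf1 was present in both clusters, at 2.90 and 1.87 in the cluster led by Pdk4 and Tm4sf1 and at 3.44 and 1.55 in that led by Defb6 and Cst6.

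**Figure D4:**
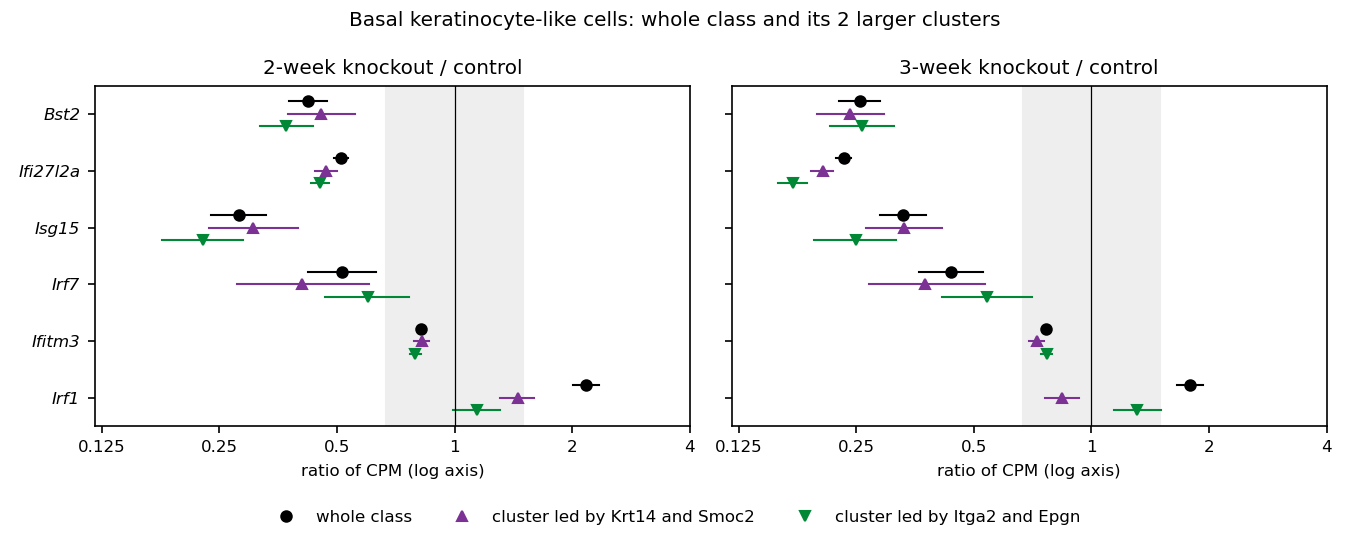
Ratio of each knockout to control (horizontal log axes) in the whole basal class and in its 2 larger clusters, with exact 95% intervals and a grey band for less than 1.5-fold. Bst2, Ifi27l2a, Isg15 and Irf7 lie left of the band in both clusters, while the Irf1 class values of 2.17 and 1.79 lie to the right of both cluster values.

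Among suprabasal-like cells, Isg15 and Irf7 were concentrated in the cornifying cluster led by Lor and Lce1m. There control held 268 Isg15 and 81.8 Irf7 CPM, against 17.5 and 5.95 in the spinous cluster led by Mt4 and Krt1. Isg15 was lower in both knockouts in the cornifying cluster, at 125 and 61.4 (ratios 0.465 and 0.229), with only 35 control cells. A single control cell gave 181 of the 896 Isg15 UMIs of the class, and the cluster values were not read without it. Irf7 there stood at 54.9 and 45.2 (0.671 and 0.552). At 2 weeks the Irf7 ratio was 0.658 (0.379 to 1.14) in the Mt4 and Krt1 cluster and 2.06 (1.01 to 4.75) in the cluster led by Krt77 and Tesc, on 9 control UMIs. Within single clusters at 2 weeks Isg15 (0.696 in the Mt4 and Krt1 cluster) and Ifi27l2a (0.675 in the Krt77 and Tesc cluster) were also nearer to control than in the class. Irf1 was higher by the rule in the Mt4 and Krt1 cluster (3.25 at 2 weeks and 2.19 at 3 weeks) and in neither of the other clusters (1.35 and 1.35 in the cornifying cluster, 1.31 and 0.848 in the Krt77 and Tesc cluster).

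Bulge-like cells, the follicle stem cell compartment, showed less of this pattern as a class. Of the 6 genes that could be compared at 2 weeks, 0 were higher and 0 lower, where 5.39% of all genes were higher and 4.50% lower. Of the 4 compared at 3 weeks, 0 were higher and 2 lower, against 10.2% and 9.58%. Bst2 stood at 7.83, 6.19 and 6.26 CPM, Isg15 at 3.92, 4.46 and 3.03 and Irf7 at 3.43, 3.46 and 2.63 in control, 2-week and 3-week knockout. These levels are low and rest on 13 to 118 UMIs per library, and the intervals of the ratios reached from 0.332 to 2.08. The 2 lower genes at 3 weeks were Ifi27l2a, at 38.7, 42.7 and 21.4 (ratios 1.10 and 0.554), and Irf1, at 71.2, 62.9 and 46.9 (0.883 and 0.658). Within the smaller bulge cluster led by Fgf18 and Ramp1 (67, 393 and 169 cells) Ifi27l2a was lower in both knockouts, at 70.5, 30.2 and 21.4 CPM, with ratios of 0.428 (0.278 to 0.670) and 0.304 (0.164 to 0.548). Ifitm3 in the bulge stood at 124, 102 and 100, within 1.5-fold, and Ifit3 had 0, 3 and 0 UMIs. The Irf1 call was lost in 5 of the 12 alternative analyses. Whether the bulge differs from the other keratinocyte classes was not tested.

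Dermal papilla or sheath-like cells, the mesenchyme of the follicle, shared some of the pattern. Isg15 stood at 58.5, 28.5 and 34.3 CPM (ratios 0.488 and 0.587), and Irf1 at 202, 313 and 409 (1.55 and 2.03). Irf7 stood at 17.7, 16.5 and 6.54 (0.933 and 0.370), and Bst2 at 42.6, 40.2 and 37.3 and Ifitm3 at 713, 505 and 636 did not pass 1.5-fold. Ifi27l2a rested on few cells, since 1 cell gave 69.4% of its 36 control UMIs and 1 cell gave 69.3% of its 75 UMIs at 2 weeks. The summed level of 14 immediate early genes in these cells was 19669, 38117 and 35708, and its part in the Irf1 values was not tested.

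In fibroblast-like cells, of which the 2-week library held only 113, 1 gene was higher (Irf1) and 2 were lower (Ifi27l2a and Ifit3) at 2 weeks, against 13.5% and 7.51% of all genes, and 0 of 7 differed by the rule at 3 weeks, against 17.5% and 4.87%. Irf1 stood at 249, 440 and 359 CPM (1.77 and 1.44), beside summed immediate early levels of 17761, 38123 and 34731, whose part was not tested. The median log2 ratio of all genes in this class was 0.12 at 2 weeks and 0.21 at 3 weeks. Bst2 at 85.6, 73.2 and 66.0 and Isg15 at 64.4, 67.8 and 59.3 lay within 1.5-fold, as did Irf7 at 24.1, 21.3 and 20.5 and Ifitm3 at 1096, 886 and 1026. Ifit3 stood at 17.2, 6.65 and 22.1, the middle value resting on 5 UMIs, and Ifi27l2a at 16.7, 3.99 and 19.1, the middle value resting on 3 UMIs. The lower Ifi27l2a call was lost in 5 of 11 alternative analyses. The cluster led by Col1a2 and Col1a1 held 283 of the 357 control cells but 37 of the 113 at 2 weeks, and neither lower call was met within it: the ratio was 0.677 (0.0163 to 4.26) for Ifit3 and 0.262 (0.00651 to 1.53) for Ifi27l2a. Krt14, a keratinocyte gene, stood in fibroblast-like cells at 2.66%, 15.1% and 8.94% of its epithelial level, or 138, 773 and 601 CPM. All 9 basal keratinocyte markers were found there, with sums of 1994, 2796 and 2184 CPM. Most of each sum came from markers other than Krt14, whose source was not tested. The part of epithelial RNA in the values of the 7 genes was not tested.

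T or NK-like cells held Bst2 at 198, 331 and 261 CPM (ratios 1.68 and 1.32) and Ifi27l2a at 242, 66.3 and 80.7 (0.274 and 0.334). Different clusters held most of this class in different libraries: the one led by Ctla2a and Cd3g held 106, 92 and 203 cells, and the one led by Icos and Cd52 held 110, 8 and 85. Within the Ctla2a and Cd3g cluster Bst2 was level across the libraries, at 343, 387 and 341, and Ifi27l2a rested on 8, 5 and 6 UMIs. In the Icos and Cd52 cluster Ifi27l2a stood at 401 in control and 237 in the 3-week knockout (0.591, 0.458 to 0.756). Isg15 at 163, 178 and 160 and Irf1 at 59.3, 71.6 and 61.4 lay within 1.5-fold in the class. Irf7 stood at 31.8, 15.9 and 16.7, on 37, 6 and 19 UMIs (0.524 at 3 weeks). Ifitm3, at 79.1, 117 and 35.9, changed its side of the control when doublets were kept or the cells were averaged, and 1 cell gave 79.5% of its UMIs at 2 weeks. Krt14 in T or NK-like cells stood at 8.50%, 16.3% and 4.70% of its epithelial level, and the part of epithelial RNA in these values was not tested.

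Smaller classes, with fewer than 100 cells in at least 1 library, held the highest levels of several genes. Schwann-like cells (78, 128 and 152 cells) held Bst2 at 137, 40.0 and 35.7 CPM, Isg15 at 141, 50.6 and 57.2, Ifit3 at 141, 21.3 and 23.8 and Ifitm3 at 1170, 568 and 469. Melanocyte-like cells (77, 87 and 109 cells) held Bst2 at 155, 51.7 and 56.5, Isg15 at 146, 54.5 and 73.4 and Ifit3 at 127, 25.8 and 48, with Ifitm3 in another order at 304, 462 and 384. Irf1 stood at 835, 461 and 667 in Schwann-like and at 140, 91.8 and 133 in melanocyte-like cells. In these 2 cell types control was the highest library for Bst2, Isg15, Ifit3 and Irf1. Blood endothelial-like cells (72, 93 and 104 cells) did not share this, with Bst2 at 233, 260 and 260 and Irf1 at 506, 512 and 667. Ifitm3 stood there at 3041, 3281 and 2812, Irf7 at 46.6, 86.0 and 46.9 and Isg15 at 242, 141 and 201. Langerhans-like cells (68 in control, 159 at 3 weeks) held more Ifi27l2a (30.8 and 65.6), Irf1 (22.0 and 54.0) and Ifitm3 (70.4 and 120) at 3 weeks. Their Isg15 was lower (54.3 and 20.3). Sebaceous gland-like cells held Irf1 at 39.1 in control and 23.6 at 3 weeks.

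In fibroblast-like and melanocyte-like cells, single cells with Ifit3 tended to be those with Isg15. Among fibroblast-like cells an Isg15 UMI was found in 56.5% of cells with an Ifit3 UMI and 16.2% of cells without in control, and in 39.1% and 13.9% in the 3-week knockout. For melanocyte-like cells the same shares were 64.7% and 26.7% in control and 33.3% and 14.4% in the 3-week knockout. The shares compare 23 and 46 fibroblast-like and 17 and 12 melanocyte-like cells with Ifit3, whose median depth was 11854 and 7136.5 UMIs in fibroblast-like and 4972 and 2548 in melanocyte-like cells, beside 9354.5 and 6278 and beside 3356.5 and 2272 for cells without it.

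Across 30 profiles of 13 classes and libraries, the genes whose log2 level most resembled each of the 7 were named from 10832 candidates by Pearson's correlation. The profiles share libraries and cell classes, so the values describe likeness only. Bst2 was closest to Lgals3bp (0.900), itself a known interferon-stimulated gene, then Ets1 (0.872) and Gabpb1 (0.871). Irf7 was closest to Cltc (0.766), Parp9 (0.752) and Jak1 (0.741), and Ifit3 to Gbp3 (0.892), Ddah1 (0.889) and Tmem140 (0.887). Isg15 was closest to Kctd10 (0.834), Galnt1 (0.827) and Ets1 (0.820), Ifitm3 to Wwtr1 (0.807), Parp12 (0.803) and Phldb2 (0.791), Irf1 to Pdlim4 (0.881), Parva (0.788) and Csrp2 (0.780), and Ifi27l2a to Aebp2 (0.858), Erh (0.842) and Galnt3 (0.840). Among the 7 themselves, Bst2 and Isg15 (0.90) and Irf7 and Isg15 (0.81) were the most alike, while Ifi27l2a was like none of the others (-0.32 to 0.18).

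Other genes of the pathway were read from lists in the order of the signal, in basal keratinocyte-like cells. They were read in the whole class and not within its clusters, whose shares differed between the libraries. The single ligands were counted over all cells and not scaled to depth. Ifng had 39 UMIs in control, 0 in the 2-week and 11 in the 3-week knockout. T or NK-like cells, which numbered 216, 100 and 288, held 92.0% of them. Ifnk, the keratinocyte interferon kappa, had 151, 88 and 124 UMIs. Its level was highest in sebaceous gland-like cells (98, 19 and 113 cells), which held 28.1% of its UMIs. Ifnb1 had 1, 1 and 0, and Ifne, Ifnl3 and the 4 interferon alpha genes listed had 0 in every library. In basal keratinocyte-like cells the 11 ligands listed summed to 1.58, 1.59 and 0.378 CPM, too few UMIs for any to be compared. None of the 6 receptor genes passed 1.5-fold in either knockout. Of 6 kinase and signal transducer genes 3 were lower at 2 weeks and 4 at 3 weeks, against 4.01% and 8.09% of all genes. Among them, the levels in control, 2-week and 3-week knockout were 69.2, 43.9 and 27.0 CPM for Jak2 and 50.3, 33.5 and 26.2 for Irf9.

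Downstream, 18 of 32 other antiviral interferon-stimulated genes were lower at 2 weeks and 22 of 32 at 3 weeks, with 0 higher in either, against 4.01% and 8.09% of all genes lower, and their median log2 ratio was -0.89 and -1.29. Trim30a stood at 8.38, 1.04 and 0.966 CPM in control, 2-week and 3-week knockout, Slfn2 at 14.9, 2.70 and 1.39 and Ifi44 at 13.2, 2.33 and 2.44. Of 15 interferon-gamma type targets 8 were lower in each knockout and 0 higher (medians -0.59 and -0.61). Iigp1, an immunity-related GTPase, stood at 19.1, 3.06 and 3.53. Of 9 sensors and adaptors 4 were lower at 2 weeks, and 5 lower and 1 higher at 3 weeks, among them the RNA sensors Ifih1 (50.3, 22.9 and 20.5) and Ddx58 (24.4, 12.3 and 10.6). Among 5 feedback inhibitors Socs3 was higher, at 110, 229 and 263, as was Ptpn6 at 3 weeks, and 0 were lower. Of all genes in the class 8.04% were higher at 2 weeks and 13.2% at 3 weeks.

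The counts of the antiviral list were also taken in other classes, beside the share of all genes lower there. In upper hair follicle-like cells 14 of 29 were lower at 2 weeks and 21 of 28 at 3 weeks, with 0 higher, against 4.63% and 8.95% of all genes lower. In bulge-like cells 2 of 20 and 1 of 17 were lower, with 0 higher, against 4.50% and 9.58%. In fibroblast-like cells 9 of 24 were lower and 1 higher at 2 weeks, and 1 of 30 was lower and 3 higher at 3 weeks, against 7.51% and 4.87% lower. Of interferon-gamma type targets in bulge-like cells 5 of 11 were lower at 2 weeks and 2 of 5 at 3 weeks, with 0 higher. Of all genes there 4.50% and 9.58% were lower. The median log2 ratio of these targets was -0.61 and 0.19. In upper hair follicle-like cells 3 of 14 were lower and 1 higher at 2 weeks, and 7 of 14 lower at 3 weeks. Fibroblast-like cells had 5 of 14 and 2 of 15 lower. The promoters of 9 of 31 matched genes of the antiviral list, 7 of 13 interferon-gamma type targets and 0 of 12 immediate early genes held the response element core. Of all genes with a promoter 3.99% held it.

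**Figure D5:**
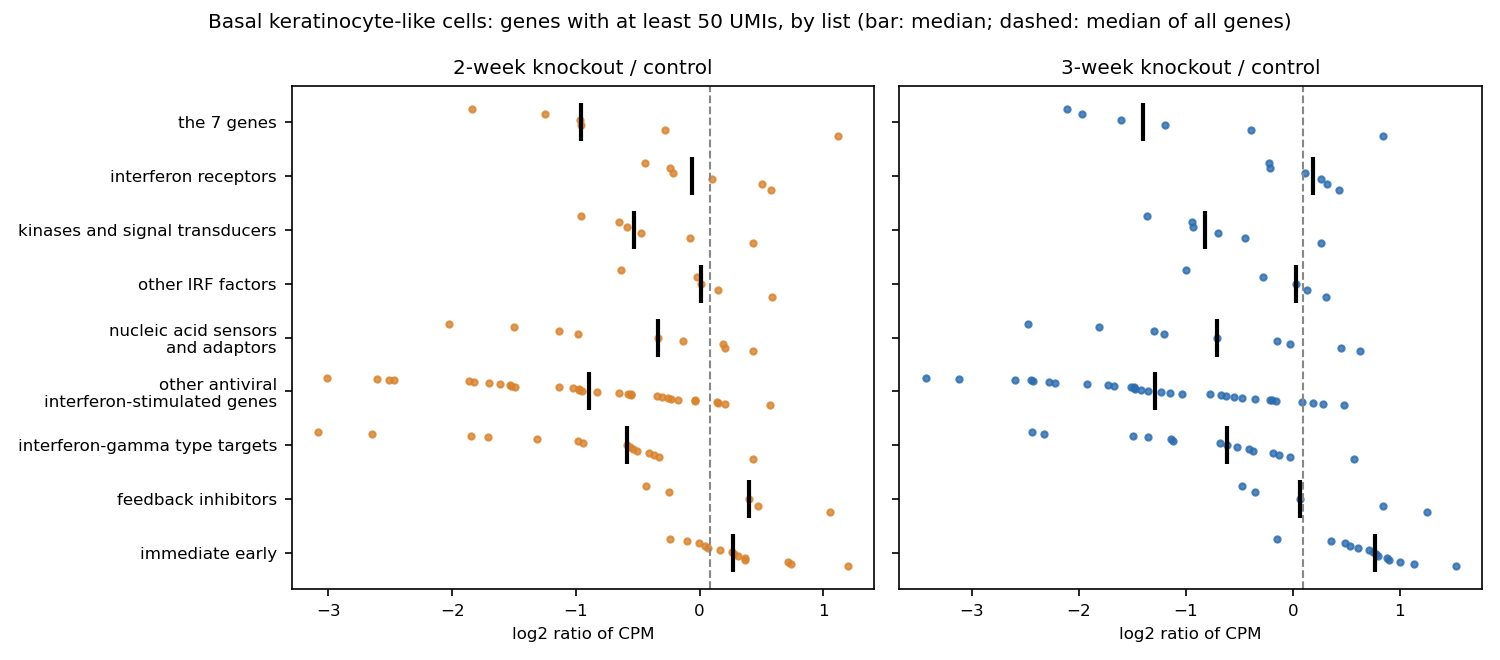
Log2 ratio of each knockout to control (horizontal axes) in basal keratinocyte-like cells for genes with at least 50 UMIs, 1 point per gene by list, with a bar for the list's median and a dashed line for the median of all genes. The other antiviral genes have medians of -0.89 and -1.29, left of the dashed line at 0.08 and 0.10, and the immediate early genes have medians of 0.27 and 0.77.

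Some of the 7 genes have close relatives whose 3' reads could be misassigned. Ifit3b had 42, 20 and 40 UMIs in all cells of control, 2-week and 3-week knockout beside 222, 64 and 205 for Ifit3, so the values of Ifit3 are uncertain to that extent. Ifi27l2b had 3, 21 and 8 UMIs, and Ifitm2 stood at 235, 254 and 270 CPM. Ambient RNA was gauged by Col1a1, a fibroblast gene, which stood in epithelial cells at 0.0878%, 0.0557% and 0.0687% of its fibroblast level and was found in 13.7%, 4.41% and 4.45% of them. Immune cell markers were also summed in basal keratinocyte-like cells, where the part of RNA from such cells in the values was not tested. The 9 T or NK markers summed to 8.48, 13.4 and 22.4 CPM, with 0, 1 and 0 of them at 0, and the 9 macrophage or monocyte markers to 4.94, 3.25 and 3.53, with 2, 2 and 1 at 0.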

How the data were processed

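The deposited matrices hold raw counts of UMIs per gene and cell barcode, with 5621, 11144 and 11186 barcodes for control, 2-week and 3-week knockout and 62967542, 97960352 and 118610125 UMIs in all. Libraries were made with 10x Genomics 3' v3.1 chemistry and the back skin was digested in collagenase I, then in trypsin, per the labels. Cell Ranger 6.1.2 and the mm10 genome were used, per the submitters' processing notes, and the intron setting is not given in the sources used here.

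Cells with fewer than 500 genes or at least 15% mitochondrial counts were left out, as were 139, 330 and 417 doublets called by Scrublet in scanpy 1.11.5, with no correction for ambient RNA. The remaining cells were clustered together with 2000 variable genes that excluded 111 interferon pathway genes, 30 principal components, 15 neighbours and the Leiden algorithm (leidenalg 0.10.2, resolution 1, seed 1), which gave 36 clusters. A class name needed at least 3 markers found in 10% of the cells and a lead of 0.5 in mean standardised level over the next class. These naming thresholds were set after the clusters were seen, and all names are likenesses.

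Levels are UMIs summed over cells and scaled to 1000000 UMIs of the class and library (CPM), with exact Poisson intervals, ratios carry exact conditional intervals and shares exact Clopper-Pearson intervals (scipy 1.17.1). A ratio was compared with at least 50 UMIs over both libraries and counted past 1.5-fold. UMIs of a cell are not wholly independent draws, so these intervals cover counting error only. The rule was also run on Poisson counts drawn from the control basal rates, with no variation added between cells, mice or libraries. It recovered 100% of 50 genes set to 0.5-fold in each knockout and 100% and 94.0% of 50 set to 0.25-fold at 2 and 3 weeks. It counted 0.734% and 0.581% of unchanged genes. Such counts follow the model of the intervals, so these shares are not error rates of the calls made on the real libraries. All 7 genes are named in each class with at least 100 cells in every library, up to 4 genes of a list by the size of their ratio, and the 3 genes most like each of the 7 by Pearson's correlation of log2(CPM + 10). Not every gene that meets the rule is named, and some are not reported here. The 7 genes and the lists were chosen with earlier results of these data known, so a list's direction is a description. In total 11 alternatives were planned and 1 was added after seeing the data.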

Additional observations from a re-analysis of the deposited data

Results flagged for a closer look

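In 3 places a gene moved in opposite directions between the knockouts or between clusters of a class. None of these differences was tested, since each group has 1 library. In dermal papilla or sheath-like cells Ifi27l2a was 1.58 of control in the 2-week knockout and 0.501 in the 3-week knockout, with 36 and 75 UMIs in control and 2-week knockout of which 1 cell each gave 69.4% and 69.3%.

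In fibroblast-like cells the clusters differed at 3 weeks. In the cluster led by Col1a2 and Col1a1 (283 control and 521 knockout cells) the ratio was 2.70 for Ifit3 and 1.87 for Isg15, and in the cluster led by Igfbp2 and Col3a1 (54 and 121 cells) it was 0.496 for Ifit3 and 0.241 for Isg15. The levels behind them were 35.4 and 66.4 CPM of Isg15 in the first cluster and 159 and 38.2 in the second.

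Among suprabasal-like cells at 3 weeks the Irf7 ratio was 0.431 in the cluster led by Mt4 and Krt1 and 0.552 in that led by Lor and Lce1m, but 2.12 in that led by Krt77 and Tesc. The last rested on 9 control UMIs from 37 cells, with an interval of 1.05 to 4.86.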

How the results depend on the processing

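Of the 55 calls in the 8 named classes, 35 were kept under every alternative that could be run: 2 of 7 higher and 15 of 20 lower at 2 weeks, and 1 of 4 higher and 17 of 24 lower at 3 weeks. The lower calls of Bst2, Ifi27l2a, Isg15 and Irf7 in basal, upper hair follicle and cycling keratinocytes were kept in all 12, and dividing by the median ratio of all genes kept 55 of 55. The number of lower pairs stayed between 15 and 22 at 2 weeks and between 19 and 25 at 3 weeks. The number of higher pairs at 2 weeks was 4 with doublets kept and 4 with at least 1000 genes per cell, which left 6 classes. At 3 weeks it was 2 with interferon genes allowed among the variable genes and 2 with each library clustered on its own. Some ratios changed side. Ifitm3 in T or NK-like cells at 3 weeks (0.454) became 1.44 with doublets kept, 1.02 as a mean over cells, and 6.61 with clusters weighted equally or with the best filled cluster alone. Ifi27l2a in dermal papilla-like cells became 0.762 at 2 weeks with doublets kept and 1.20 at 3 weeks without the cell with the most UMIs. Ifi27l2a in fibroblast-like cells at 2 weeks (0.239) became 1.19 with a mitochondrial limit of 10%, and Irf1 in basal keratinocyte-like cells at 3 weeks became 0.920 with clusters weighted equally. The cause was not tested. No paired analysis was possible because each group has 1 library.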

Other observations

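In control keratinocytes Isg15 stood at 38.4 CPM in the cluster led by Krt77 and Tesc, at 53.5 in the Krt14 and Smoc2 cluster and at 268 in the cluster led by Lor and Lce1m, and Irf7 stood at 4.73, 22.3 and 81.8 in that order. The cluster led by Lor and Lce1m held 35 control cells, and these levels were not read without the single cells highest in Isg15. The relatives of the 7 genes did not all share their direction: over all cells Ifitm2 stood at 235, 254 and 270 CPM in control, 2-week and 3-week knockout and Ifi27 at 137, 128 and 148, while Ifitm3 stood at 782, 563 and 566 and Ifi27l2a at 395, 174 and 88.1. Values over all cells mix classes in different shares.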
